A study of Mus musculus with 8 samples.

Results

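Mitosis genes were examined as 1 functional group in mouse embryonic stem cells (ESCs) from which nucleostemin (NS) expression was removed. The group held 35 named genes whose products drive a cell from G2 through chromosome segregation to cytokinesis, together with their transcriptional regulators Mybl2 and Foxm1. Its members were chosen by function, with earlier results of these data known. Each gene was represented by 1 probe set, that with the highest mean signal over the 8 arrays, and 34 of the 35 could be taken from the table of 18194 genes; Ccnb1 was not analysed here. All 34 lay above the median signal of all probe sets, with mean log2 signals between 7.53 and 12.94.

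The cells were NS tet-off ESCs, a male 129sv line in which both copies of the NS gene (Gnl3) are disrupted and an NS cDNA at the ROSA26 locus is shut off by doxycycline (Dox), so every array, the controls included, carries this genotype. There were 4 pairs of Dox-untreated and Dox-treated (6 days) cultures with 1 array for each condition: cells bearing an empty vector, the same empty vector-bearing cells kept with inhibitors of MEK and GSK3b (2i), cells overexpressing Nanog, and cells overexpressing Esrrb. The 4 pairs thus served as the replicates of the Dox contrast, and no spread between cultures of 1 condition was measured; the p-values below describe the spread between the pairs. The Nanog and Esrrb vectors had been integrated stably under puromycin selection. Standard culture was without feeders in medium with LIF and serum. The study sets this apart from its 2i plus LIF condition, and whether the 2i cultures held serum is not given in the sources used here.

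Passage through mitosis depends on a burst of transcription in G2 and M phase. Cdk1 bound to its cyclins starts it, the kinetochore and the spindle checkpoint hold chromatid separation until every chromosome is attached, and the anaphase-promoting complex ends it by destroying securin and the cyclins. Most of these genes are silenced in resting cells by the DREAM complex and switched on by MYBL2 (with the MuvB core) and FOXM1, which act at the cell cycle genes homology region (CHR) beside CCAAT boxes in their promoters. ESCs cycle rapidly with a short G1 phase and so contain much of this mRNA. In a whole culture, fewer cells in G2 and M phase and less mRNA per such cell cannot be told apart.

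The arrays matched their labels in most respects. Gnl3 signal was lower in every Dox-treated culture, with log2 ratios from -4.56 to -5.68. All 10 ES cell markers were above the median probe set on every array, and 1 to 2 of 8 fibroblast markers were. Trophoblast markers were higher with Dox in 2 pairs. The log2 of their summed signal was 13.44 (empty vector) and 12.32 (2i) on these Dox-treated arrays, against 10.54 to 11.29 on the other 6. Krt8 and Krt18 were the brightest of them on the empty vector Dox-treated array, at 12.25 and 11.89. Cdx2 and Elf5, 2 of the 10, lay at or below a log2 signal of 5.35 on every array. For primitive endoderm markers the log2 of the summed signal was 12.18 and 11.48 on the untreated and treated Esrrb arrays and 9.97 to 10.65 elsewhere. The MEK feedback genes Dusp6 and Spry4 had log2 signals of 10.95 and 9.92 on the 2i Dox-untreated array, near the 10.97 and 10.17 of the empty vector, and 7.63 and 4.07 on the 2i Dox-treated array, so the untreated 2i array did not carry the loss of these 2 mRNAs that the treated one did. In the 2i pair Dox and whatever lowered these 2 mRNAs therefore cannot be told apart. Every result below that uses this pair, alone or in a test, carries this limit. The brightest Nanog probe set had log2 signals of 12.35 and 12.23 on the Nanog arrays against 12.81 and 12.49 with empty vector, and that of Esrrb had 11.27 and 11.38 on the Esrrb arrays against 11.31 and 10.38. Whether these probe sets lie within the vector transcripts is not given in the sources used here, so they do not check those labels.

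Nearly all mitosis genes were lower after Dox in the 2i pair, and the shift was smaller with empty vector and small where Nanog or Esrrb was forced. Each pair gives a log2 ratio of treated to untreated signal, whose median over the 34 members was -0.14 for empty vector, -0.47 for 2i, -0.09 for Nanog and -0.06 for Esrrb, where the medians over all genes were -0.03, 0.03, -0.01 and 0.00238. In the 2i pair 33 of the 34 (97.1%) were below 0, with Gtse1 as the exception, where 46.4% of all genes were. With empty vector there were 24 (70.6%, against 54.2% of all genes), with Nanog 20 (58.8% against 52.0%) and with Esrrb 23 (67.6% against 49.5%). Few changes reached 2-fold. In the empty vector pair 1 member (Mybl2) was over 2-fold lower and 1 (Gtse1) over 2-fold higher, while 3.85% and 5.36% of all genes were. The 2i pair had 2 members (Kif11 and Ndc80) over 2-fold lower and 0 higher (3.10% and 4.81% of all genes). No member passed 2-fold with Nanog (1.17% lower and 1.13% higher over all genes) or with Esrrb (0.967% and 1.06%).

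**Figure D1:**
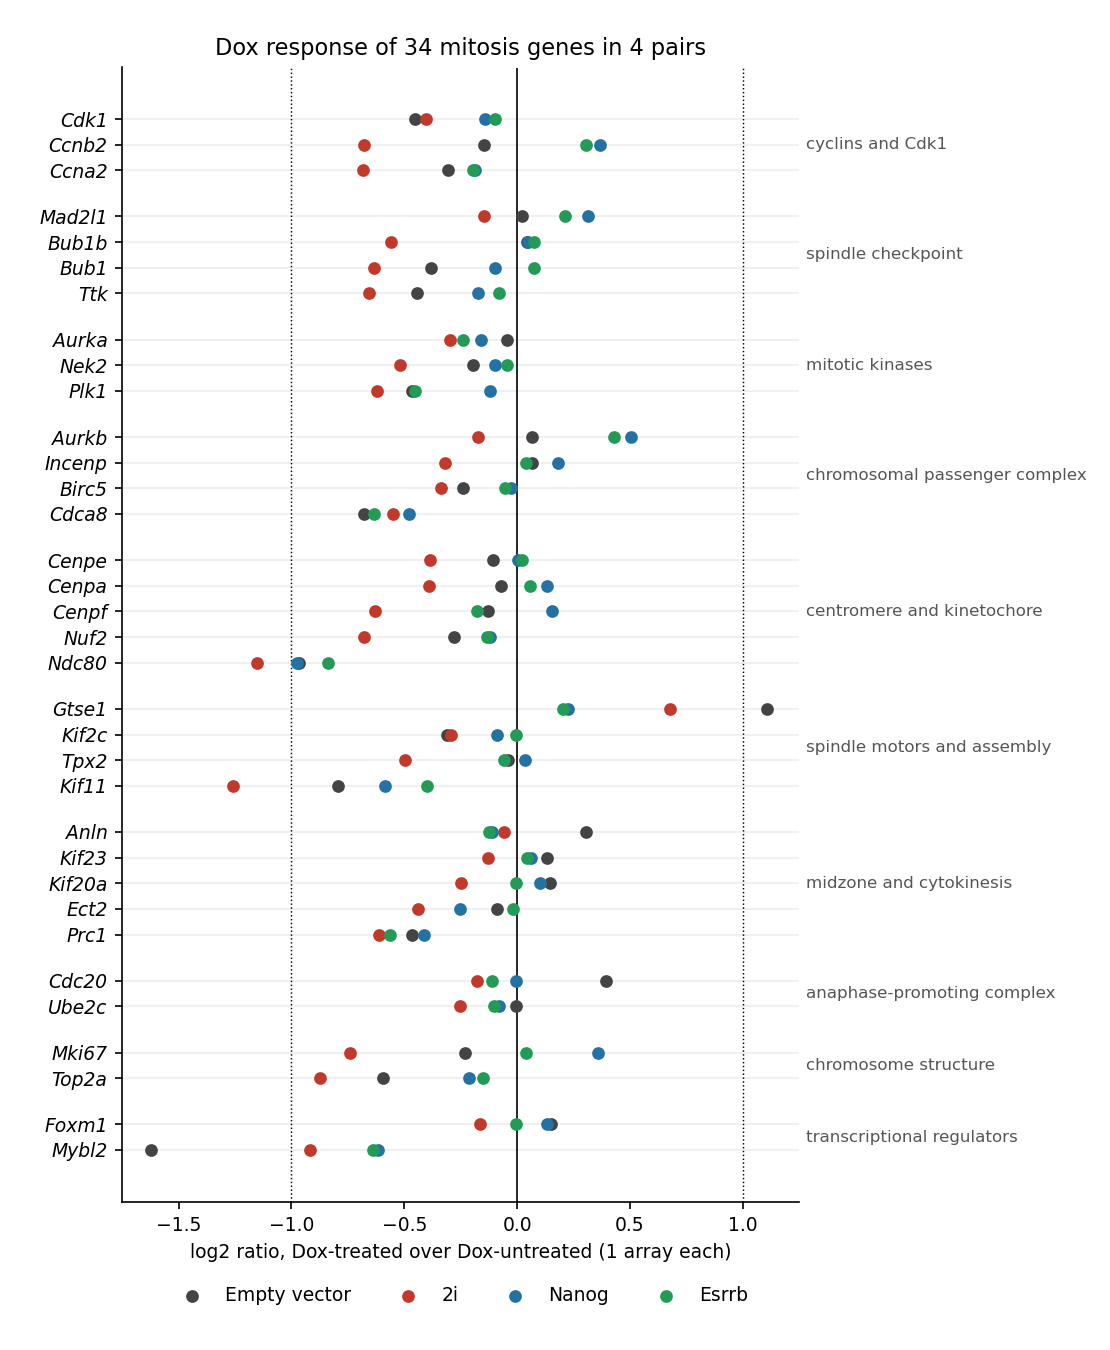
Log2 ratio of treated to untreated signal (x axis) for each of 34 mitosis genes (rows, grouped by role), 1 point per pair with 1 array for each condition; dotted lines mark 2-fold. The 2i points lie left of 0 for 33 genes, and Ndc80, Kif11, Mybl2, Cdca8 and Prc1 lie left of 0 in all 4 pairs.

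The direction was shared by all 4 pairs for 17 members that were lower and for 1, Gtse1, that was higher; over all genes 19.1% were lower and 18.4% higher in all 4. Tested over the 4 pairs with the background as a block, 5 members fell and 0 rose at an adjusted p below 0.05, among 3.39% of all genes that fell and 3.69% that rose. The 5 were Ndc80, Cdca8, Prc1, Mybl2 and Kif11, and they stand for different steps: kinetochore attachment, the chromosomal passenger complex, the spindle midzone, transcription and the spindle motor. At an unadjusted p below 0.05 there were 13, 12 of them lower, beside 27.4% of all genes in either direction and 14.0% lower. These calls rested on all 4 pairs together, since leaving out any 1 pair left 0 of the 5, although each estimate stayed below 0. In those fits 0.159% (without empty vector), 0.0989% (2i), 0.192% (Nanog) and 0.0165% (Esrrb) of all genes passed.

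Ndc80 encodes the subunit that binds kinetochores to microtubules. Its log2 signal on the Dox-untreated arrays was 10.60 (empty vector), 10.48 (2i), 10.68 (Nanog) and 10.47 (Esrrb), and on the Dox-treated arrays 9.63, 9.32, 9.70 and 9.63 in the same order. The highest treated value was below the lowest untreated one. The log2 change was -0.98 ± 0.08 (SE, n = 4 pairs), or 1.98-fold lower, with an adjusted p of 0.0139, and with 1 pair left out it lay between -0.93 and -1.03 with adjusted p between 0.0564 and 0.0631. It was the member whose fall varied least with the background in relation to its size, being lower by 0.97, 1.15, 0.98 and 0.84 in the 4 pairs. Its partner Nuf2 was lower by 0.28, 0.68, 0.12 and 0.14 and did not pass the test.

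Cdca8 encodes borealin, which anchors the chromosomal passenger complex at the centromere. Untreated log2 signals were 11.80, 11.73, 12.02 and 12.01 with empty vector, 2i, Nanog and Esrrb, and treated ones 11.12, 11.18, 11.54 and 11.38. The groups did not overlap, and the log2 change was -0.59 ± 0.06 (SE, n = 4 pairs, adjusted p 0.0189). The other 3 measured subunits of the complex did not pass. Birc5 (survivin) had ratios of -0.24, -0.34, -0.03 and -0.05 and Incenp of 0.06, -0.32, 0.18 and 0.04. The kinase gene Aurkb had 0.07, -0.18, 0.50 and 0.43, so that members of 1 complex differed in sign within a pair.

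Prc1 encodes the protein that bundles antiparallel microtubules at the midzone. Its log2 signal was 11.17, 11.07, 11.35 and 11.36 without Dox and 10.71, 10.46, 10.94 and 10.80 with Dox, with no overlap. The change was -0.51 ± 0.07 (SE, n = 4 pairs, adjusted p 0.0243) and lay between -0.41 and -0.61 in every pair. The other midzone and cytokinesis genes moved little. Kif20a, Kif23 and Anln had ratios between -0.25 and 0.31 over the 4 pairs, although a dimmer Anln probe set had -0.11, -0.61, -0.36 and -0.15. Ect2, the exchange factor that activates RhoA at the cleavage plane, was lower by 0.09, 0.44, 0.25 and 0.02 without passing the test.

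Mybl2 encodes the transcription factor that joins the MuvB core to switch on G2 and M phase genes. It had log2 signals of 11.10, 11.12, 11.16 and 11.02 without Dox, close together, and of 9.48, 10.20, 10.54 and 10.38 with Dox. All 4 treated values were lower, and the lowest was that of the empty vector. The change was -0.95 ± 0.18 (SE, n = 4 pairs, adjusted p 0.0397). By this probe set it was, unlike most members, further down with empty vector, 3.08-fold, than with 2i, 1.89-fold. A further Mybl2 probe set had ratios of -1.10, -1.35, -0.76 and -0.07, so the order of empty vector and 2i depended on the probe set. Foxm1, the other regulator, had a low signal of between 7.34 and 7.72 on all arrays and ratios of 0.15, -0.16, 0.13 and -0.01. Of 2 further Foxm1 probe sets of similar signal, one had ratios of 0.19, -0.75, -0.21 and -0.20 and the other of 0.16, -0.60, 0.03 and -0.03, so the size of its 2i difference depended on the probe set.

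Kif11 encodes the kinesin that pushes the spindle poles apart. Signals were 11.07, 10.87, 10.99 and 10.84 without Dox against 10.28, 9.61, 10.41 and 10.45 with Dox. The groups were separate, and the 2i Dox-treated array was the lowest by 0.67. The change was -0.76 ± 0.15 (SE, n = 4 pairs, adjusted p 0.0419), and 2 further probe sets of Kif11 were lower in all 4 pairs, by between 0.36 and 1.16. Averaged over its 3 probe sets the change was -0.67 with an adjusted p of 0.0516. Tpx2 and Kif2c, which help to build the spindle and to correct its attachments, had ratios between -0.50 and 0.04. The next brightest Tpx2 probe set was lower in all 4 pairs, with -0.44, -1.12, -0.46 and -0.56.

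**Figure D2:**
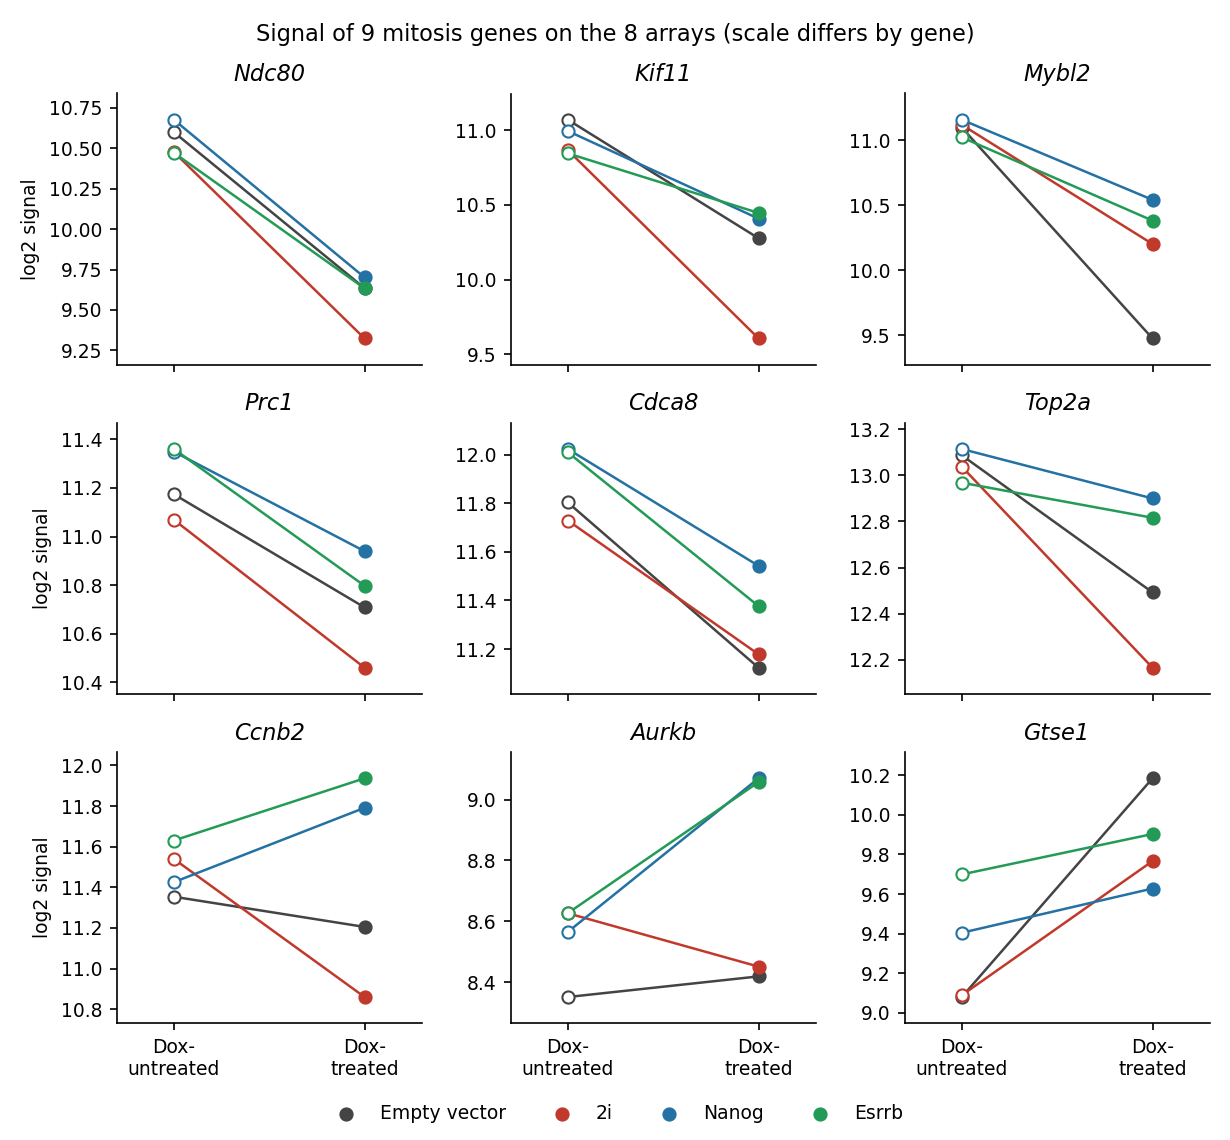
Log2 signal (y axis, a scale of its own for each gene) of 9 mitosis genes on the Dox-untreated (open) and Dox-treated (filled) array of each pair, joined by a line. Ndc80, Kif11, Mybl2, Prc1 and Cdca8 fall in all 4 pairs, Ccnb2 and Aurkb are higher after Dox with Nanog and Esrrb, and Gtse1 is higher in every pair.

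Promoter letters are given for 8 members, the 5 above, Top2a and Ccnb2, which had the lowest adjusted p and the largest estimate for a difference between backgrounds, and Gtse1, the only one higher in all 4 pairs. Each stretch runs from 120 bases before to 30 bases after the RefSeq start on GRCm38.p6, with capitals marking CHR letters (TTTGAA or TTCGAA, either strand) and CCAAT (either strand) that lie wholly inside it.
Ndc80, chr17:71526828-71526977, minus strand: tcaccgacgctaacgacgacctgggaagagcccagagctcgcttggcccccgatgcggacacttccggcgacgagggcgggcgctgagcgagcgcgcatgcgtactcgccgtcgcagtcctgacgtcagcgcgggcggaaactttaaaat
Cdca8, chr4:124936888-124937037, minus strand: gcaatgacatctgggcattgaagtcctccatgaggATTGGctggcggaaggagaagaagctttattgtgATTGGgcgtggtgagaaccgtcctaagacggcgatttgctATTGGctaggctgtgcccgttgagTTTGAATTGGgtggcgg
Prc1, chr7:80294331-80294480, plus strand: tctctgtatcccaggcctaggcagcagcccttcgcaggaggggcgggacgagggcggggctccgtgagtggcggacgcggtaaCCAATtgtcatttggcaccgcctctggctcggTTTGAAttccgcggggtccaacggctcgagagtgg
Mybl2, chr2:163054515-163054664, plus strand: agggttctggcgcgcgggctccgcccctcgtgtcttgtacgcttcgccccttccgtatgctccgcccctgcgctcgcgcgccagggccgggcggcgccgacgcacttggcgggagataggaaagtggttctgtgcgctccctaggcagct
Kif11, chr19:37376262-37376411, plus strand: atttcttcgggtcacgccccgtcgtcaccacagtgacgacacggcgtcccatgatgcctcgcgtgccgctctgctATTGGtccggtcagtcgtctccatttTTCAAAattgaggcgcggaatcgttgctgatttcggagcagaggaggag
Top2a, chr11:99024160-99024309, minus strand: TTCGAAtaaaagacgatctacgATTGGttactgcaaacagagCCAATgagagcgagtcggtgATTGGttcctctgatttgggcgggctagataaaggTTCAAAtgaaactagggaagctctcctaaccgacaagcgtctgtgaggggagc
Ccnb2, chr9:70421525-70421674, minus strand: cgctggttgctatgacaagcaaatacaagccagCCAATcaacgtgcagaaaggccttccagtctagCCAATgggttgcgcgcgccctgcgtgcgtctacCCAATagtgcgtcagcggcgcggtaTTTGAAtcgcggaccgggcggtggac
Gtse1, chr15:85859587-85859736, plus strand: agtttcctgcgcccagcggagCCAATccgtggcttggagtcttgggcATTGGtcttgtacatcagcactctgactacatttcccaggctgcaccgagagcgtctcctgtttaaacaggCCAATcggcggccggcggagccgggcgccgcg

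In Prc1, Kif11 and Ccnb2 a CHR lay near the start with a CCAAT box upstream of it, and in Cdca8 the CHR letters ran into a CCAAT box on the other strand and shared 1 base with it. Top2a had 2 CHR and 3 CCAAT matches in the stretch, Ndc80 had its only CHR match at 29 bases after the start, just beyond the printed bases, Gtse1 had CCAAT boxes alone, and Mybl2 had neither in its window of 300 bases. RefSeq promoter windows, from 250 bases before to 50 after the start, could be matched to 29 of the 35 members (32 windows, 28 measured members). CHR letters were in 23 of the 32 windows (71.9%) against 19.2% of all 32851 windows of this length, CCAAT in 78.1% against 37.4%, and both in 62.5% against 7.52%. Among 115 windows of other mitosis genes 46.1% held CHR letters, 57.4% CCAAT and 32.2% both, and among 39 of DNA replication genes 17.9%, 61.5% and 12.8%. Responses of members with and without CHR letters overlapped, and their difference was not tested. The median log2 change over the empty vector and 2i pairs was -0.41 (-1.06 to 0.12) for the 21 measured members with CHR letters. It was -0.29 (-1.27 to 0.89) for the 7 without, which include Mybl2 and Gtse1, at opposite ends of the range. CHR letters were in 83.3% of 12 windows of members called lower in these pairs below, and in 68.4% of 19 windows of the other measured members. A match of letters is a description of the sequence and not evidence that a factor was bound.

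**Figure D3:**
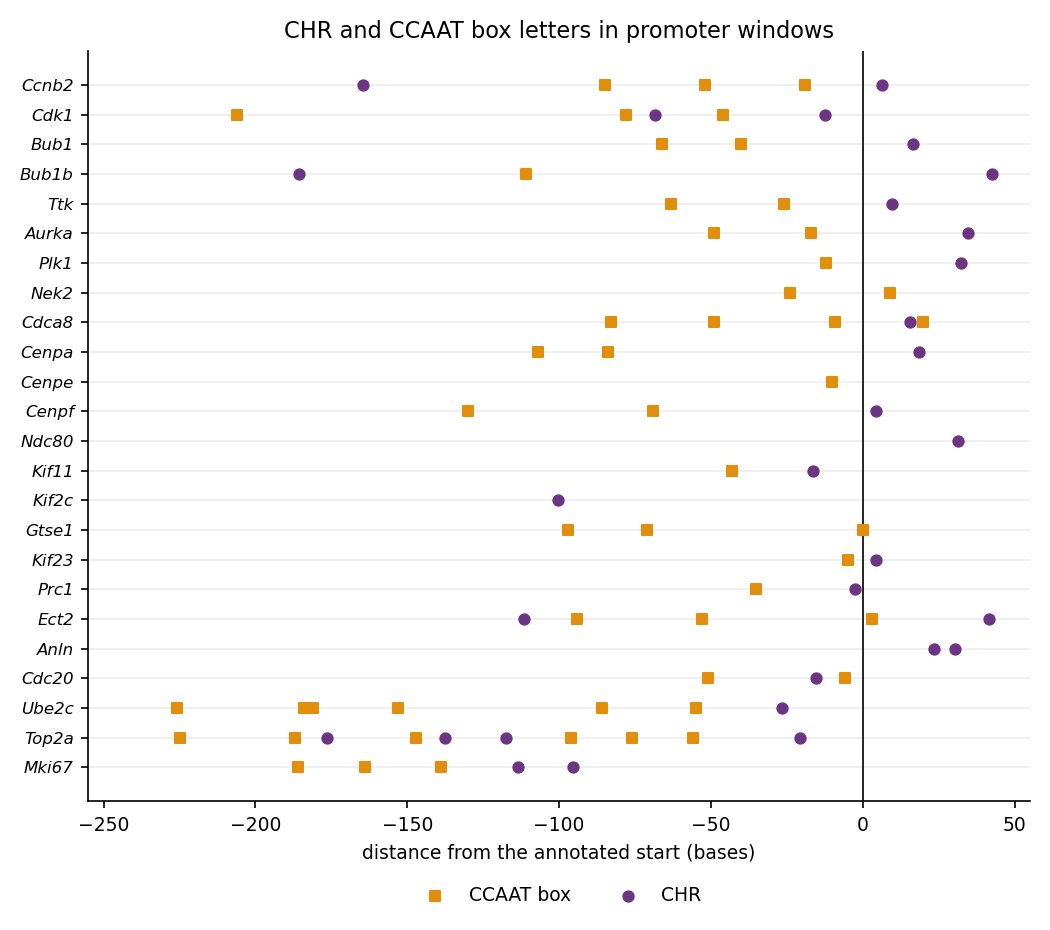
Position of CHR letters (circles) and CCAAT letters (squares) relative to the annotated start (x axis, bases) in the first RefSeq window of the 24 measured members that held any. Most CHR matches sit close to the start, within 40 bases of it in 19 members, with CCAAT boxes upstream. How many of all windows hold CHR letters within 40 bases was not counted.

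Responses were then split into the mean of the empty vector and 2i pairs and the mean of the Nanog and Esrrb pairs, to ask whether forced Nanog or Esrrb altered them. In the empty vector and 2i pairs 12 members fell and 1 rose at an adjusted p below 0.05, where 9.20% of all genes fell and 9.07% rose. In the Nanog and Esrrb pairs 1 fell, Ndc80 with -0.91 ± 0.10 (SE, n = 2 pairs, adjusted p 0.0359), and 0 rose, against 0.379% and 0.539% of all genes. The 12 were Ndc80, Top2a, Kif11, Cdca8, Mybl2, Cdk1, Prc1, Ttk, Bub1, Plk1, Ccna2 and Birc5, and the 1 that rose was Gtse1. Both counts depended on the spread being pooled. The SD over all genes of the difference between the pairs was 0.52 for empty vector against 2i and 0.32 for Nanog against Esrrb. With each set of 2 pairs fitted from its own arrays, an alternative chosen after seeing the data, 4 members fell with empty vector and 2i (Ndc80, Kif11, Top2a and Mybl2; 2.21% of all genes fell). With Nanog and Esrrb 6 fell and 3 rose, where 7.52% of all genes fell and 8.49% rose, so the count over all genes was larger too. Leaving out a pair likewise moved the calls over all genes. For empty vector and 2i, 3 members passed without the Nanog pair (5.24% of all genes), 4 without Esrrb (5.39%), 25 without empty vector (24.2%) and 14 without 2i (25.9%). For Nanog and Esrrb, 9 members passed without empty vector or without 2i (16.1% of all genes in both), and 0 members and 0% of all genes without Nanog or without Esrrb.

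The difference between the sets was tested directly, and 0 members passed (0.0824% of all genes did). By the same limma test 11 members had an unadjusted p below 0.05 (15.8% of all genes), of which 10 were relatively higher with Nanog and Esrrb (7.86%). With the empty vector pair left out 14 passed, all higher (11.5% of all genes passed in either direction), and with the 2i pair left out 6 passed, 3 in each direction (12.2%). In 19 of the 34 both ratios of the first set lay below both of the second (23.2% of all genes), and in 2, Gtse1 and Anln, above (24.1%).

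**Figure D4:**
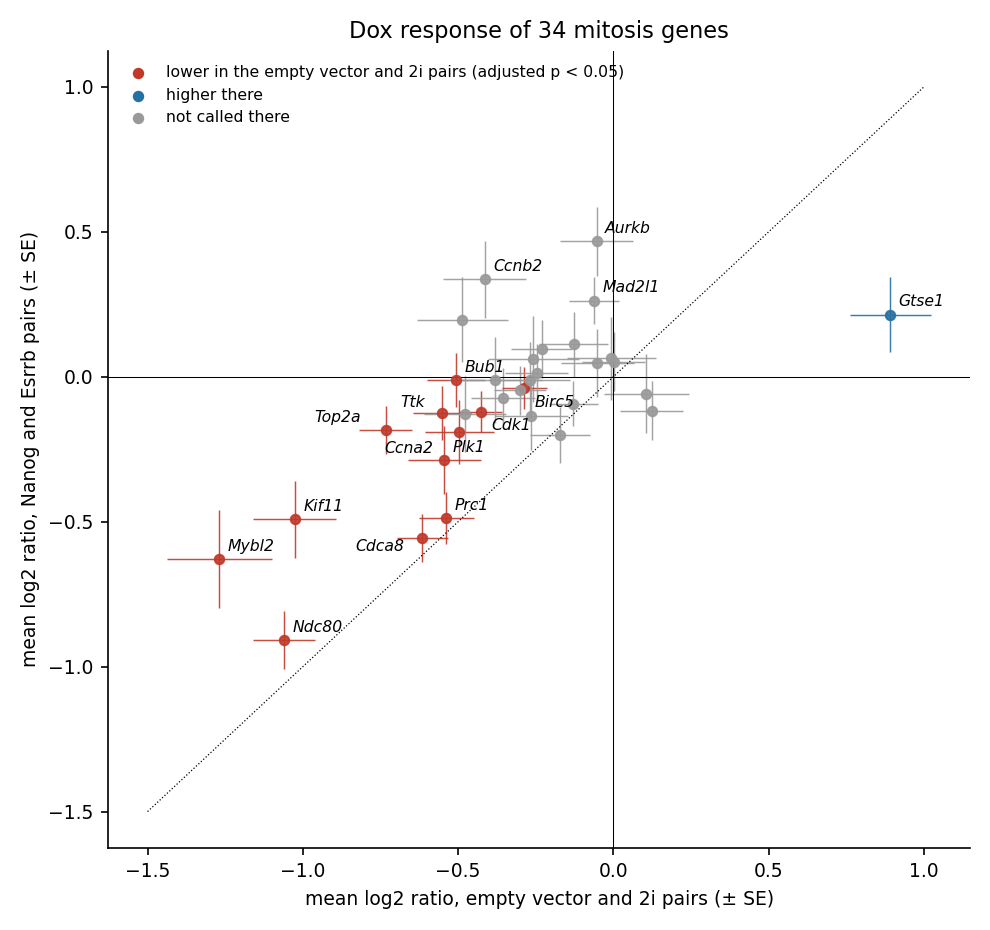
Mean log2 ratio (± SE from the fit over all 8 arrays) in the empty vector and 2i pairs (x axis) against that in the Nanog and Esrrb pairs (y axis) for 34 mitosis genes; the dotted line marks equal change. The 12 genes in red fell on the x axis at an adjusted p below 0.05, Gtse1 rose, and Ndc80, Cdca8 and Prc1 lie near the line of equal change.

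Among the cyclins and Cdk1, the kinase that triggers mitosis, Cdk1 and Ccna2 fell in the empty vector and 2i pairs. Cdk1 had log2 signals of 11.78, 11.91, 11.95 and 11.95 without Dox and 11.33, 11.50, 11.81 and 11.85 with Dox. The treated values of the empty vector and 2i were below every untreated one, and those of Nanog and Esrrb were not. Its change was -0.43 ± 0.07 (SE, n = 2 pairs, adjusted p 0.0146) with empty vector and 2i and -0.12 ± 0.07 with Nanog and Esrrb. Ccna2 (cyclin A2) changed by -0.50 ± 0.11 (adjusted p 0.0336) and by -0.19 ± 0.11.

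Ccnb2, a B-type cyclin, gave the largest estimate of the difference between the sets. Signals were 11.35, 11.54, 11.43 and 11.63 without Dox and 11.21, 10.86, 11.79 and 11.94 with Dox, so treated cells were below their control with empty vector and 2i and above it with Nanog and Esrrb. The difference was 0.75 ± 0.19 (SE) with an adjusted p of 0.148. Mki67, which coats mitotic chromosomes, had ratios of -0.23, -0.74, 0.36 and 0.04 and a difference of 0.68 ± 0.21 (adjusted p 0.206). Top2a, which decatenates them, had the lowest adjusted p of the members, 0.115. Its signals were 13.09, 13.04, 13.11 and 12.97 without Dox and 12.49, 12.17, 12.90 and 12.82 with Dox. Every treated value was below every untreated one, by most in the 2i pair. The difference between the sets was 0.55 ± 0.12, from -0.73 ± 0.08 (adjusted p 0.00599) with empty vector and 2i and -0.18 ± 0.08 with Nanog and Esrrb. A dimmer Top2a probe set had ratios of -0.42, -0.95, 0.32 and 0.28.

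Of the spindle checkpoint genes Ttk and Bub1, both kinases that act at unattached kinetochores, fell with empty vector and 2i, Ttk by 0.55 (SE 0.09, adjusted p 0.0160) and Bub1 by 0.51 (SE 0.09, adjusted p 0.0197). Their ratios with Nanog and Esrrb were -0.17 and -0.08 for Ttk and -0.10 and 0.08 for Bub1. A second, much dimmer Bub1 probe set gave -1.28, -1.67, -0.61 and -0.74. Bub1b was lower by 0.56 in the 2i pair, with 0.04, 0.05 and 0.07 in the others. Mad2l1 had ratios of 0.02, -0.15, 0.31 and 0.21 and an estimate of 0.26 ± 0.08 with Nanog and Esrrb (adjusted p 0.185).

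Among the mitotic kinases Plk1 fell by 0.54 (SE 0.12, adjusted p 0.0310) in the empty vector and 2i pairs. Its ratio in the Esrrb pair, -0.45, was near that of the empty vector, -0.47, whereas the Nanog pair had -0.12. Nek2 was lower by 0.19, 0.52, 0.10 and 0.05, and Aurka by 0.05, 0.30, 0.16 and 0.24, without passing. The centromeric histone Cenpa and the kinetochore genes Cenpe and Cenpf were lowest in the 2i pair, with ratios of -0.39, -0.39 and -0.63, and between -0.18 and 0.15 in the others, while 2 dimmer Cenpf probe sets were lower in all 4 pairs, by between 0.15 and 0.64. The activator Cdc20 and the E2 enzyme Ube2c of the anaphase-promoting complex moved little, apart from a Cdc20 ratio of 0.39 in the empty vector pair.

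Gtse1, a microtubule-bound protein of G2 that also restrains p53, ran against the other members. Its log2 signal was 9.08, 9.09, 9.40 and 9.70 without Dox and 10.19, 9.77, 9.63 and 9.90 with Dox. The untreated Esrrb array was above the treated Nanog array, so the groups overlapped. It rose by 0.89 ± 0.13 (SE, n = 2 pairs, adjusted p 0.0109) in the empty vector and 2i pairs, 1.86-fold, and had an estimate of 0.21 ± 0.13 with Nanog and Esrrb. The array has 1 probe set for Gtse1. Fitted on the empty vector and 2i arrays alone its adjusted p was 0.0606.

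The 2i Dox-treated array was the lowest of the 8 for 28 of the 34 members, against 15.0% of all genes. Set beside the empty vector Dox-treated array it was lower for 30 members (median difference -0.32), while 57.2% of all genes were higher there (median 0.05), with Cdc20 furthest down (-0.70) and Mybl2 in the opposite direction (0.73). The untreated 2i array was higher than the untreated empty vector array for 17, as for 50.9% of all genes. Dox-treated Nanog and Esrrb arrays were above the treated empty vector array for 29 members each, by medians of 0.29 and 0.23, where 52.5% and 57.5% of all genes were higher, by medians of 0.02 and 0.05. Untreated, they were also above the untreated empty vector array for 30 and 24 members, by a median of 0.17 in both (54.2% and 54.0% of all genes, medians 0.02 and 0.03), so higher signals were seen without Dox as well. All these differences share the 2 empty vector arrays, compare 1 array with 1 array and carry no test. In the 2i Dox-treated culture Dusp6 and Spry4 signal was also lower and trophoblast markers were higher. The trophoblast markers had a median log2 ratio of 1.53 with empty vector and 1.23 with 2i. Which pair had the larger rise depended on the marker. Gata3 and Krt7 had ratios of 1.95 and 2.91 with empty vector and 2.23 and 3.75 with 2i. Krt8 and Krt18 had 3.85 and 4.42 with empty vector and 1.70 and 1.68 with 2i. Mitosis genes had medians of -0.14 and -0.47 in these pairs. The part of Dusp6, Spry4 and the trophoblast markers in the lower mitosis signal was not tested.

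In the empty vector and 2i pairs other genes of the mitotic machinery fell more often than all genes and rose no more often. The 119 measured covered kinetochores, centromeres, cohesin and condensin, spindle, cytokinesis and the anaphase-promoting complex. Of them 31 (26.1%) fell and 9 (7.56%) rose in these pairs, where 9.20% of all genes fell and 9.07% rose. Their median log2 change was -0.21, against -0.29 for the members and 0.00247 for all genes. Those with the largest fall were Kntc1, a kinetochore checkpoint gene (-1.26 ± 0.08, adjusted p 0.00165), the cohesin regulator Pds5b (-1.20), Cenpk (-1.13) and Ska1 (-1.07). Pttg1, which encodes securin, the inhibitor that guards sister chromatid cohesion until anaphase, rose by 2.01 ± 0.16 (adjusted p 0.00246), followed by Cenpt (1.13), Cdc23 (0.95) and Fam83d (0.95). Securin mRNA was higher in every pair. Its signals were 10.11, 11.21, 10.94 and 11.17 without Dox and 12.44, 12.90, 12.45 and 12.88 with Dox, and it rose by 1.61 ± 0.16 with Nanog and Esrrb too (adjusted p 0.0289). Nusap1, a spindle microtubule gene, fell there by 0.54 (SE 0.07, adjusted p 0.0496).

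Over all 4 pairs 8 of the 119 (6.72%) fell and 3 (2.52%) rose, where 3.39% of all genes fell and 3.69% rose. Pds5b (-0.83), Nusap1 (-0.78), Cenpp (-0.74) and Knl1 (-0.71) had the largest falls, and Pttg1 (1.81), Cenpt (0.81) and Ckap2 (0.62) rose. Averaged over probe sets, Pds5b was at -0.37 and Cenpp at -0.43 and neither passed (adjusted p 0.103 and 0.0790). Pttg1 passed without the empty vector or the Nanog pair (adjusted p 0.0231 and 0.0456) and not without the 2i or the Esrrb pair (0.0564 and 0.0627), and of the genes named here for this test only it and Gnl3 passed with any pair left out. Knl1 anchors the checkpoint kinase Bub1 at the kinetochore, and Ndc80 binds beside it. Of the 119, 45 were lower and 20 higher in all 4 pairs (19.1% and 18.4% of all genes). On the 2i Dox-treated array 51 were lowest (15.0% of all genes). Among 41 DNA replication genes 26 (63.4%) fell and 1 (2.44%) rose in the empty vector and 2i pairs, with a median of -0.47. In the Nanog and Esrrb pairs 0 of the replication genes passed. Their medians in the 4 pairs were -0.46, -0.47, -0.01 and -0.13, so that in the empty vector pair replication genes were lower than mitosis genes (median -0.14), while in the 2i pair the medians were alike. Of 14 G1 cyclins, kinases and inhibitors 4 (28.6%) rose and 7 (50%) fell with empty vector and 2i, against 9.07% and 9.20% of all genes.

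**Figure D5:**
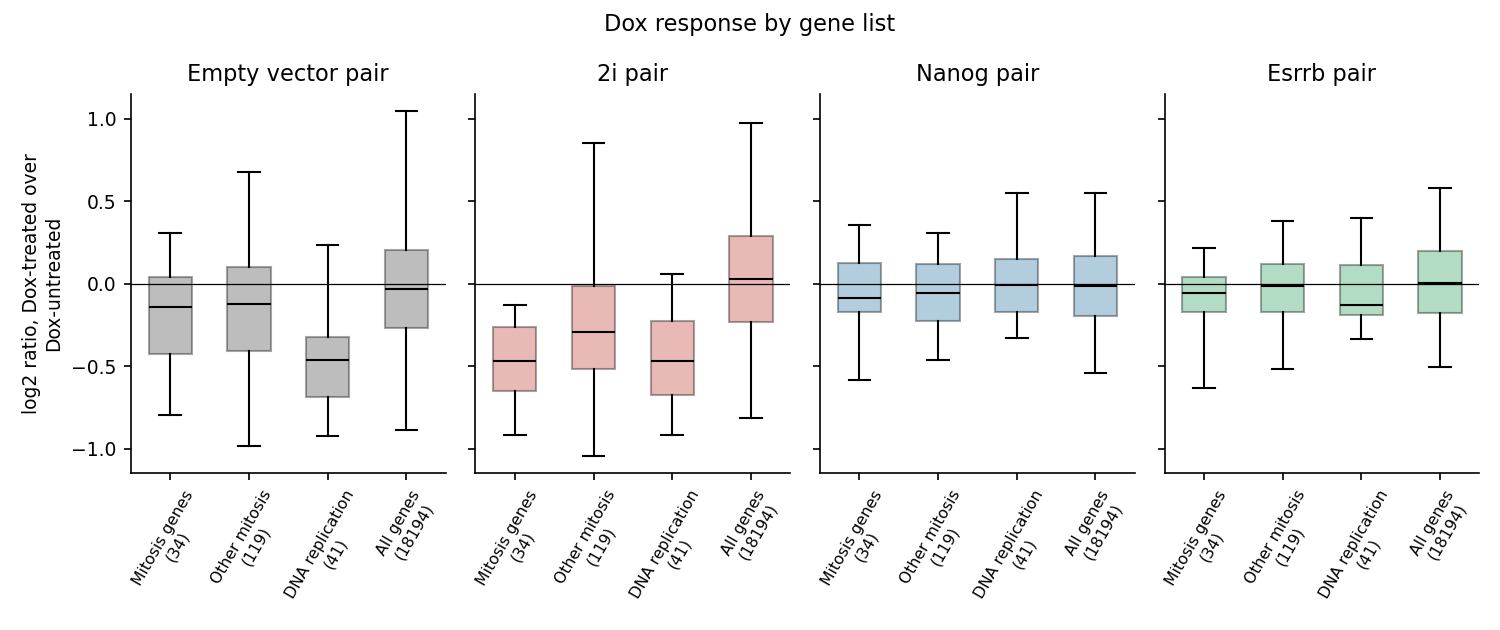
Log2 ratio of treated to untreated signal (y axis) in each pair for 34 mitosis genes, 119 other mitosis genes, 41 DNA replication genes and all 18194 genes; boxes span the quartiles with the median as a line, and whiskers the 5th to 95th percentile. Mitosis and replication boxes lie mostly below 0 in the 2i pair, replication genes lie lower than mitosis genes in the empty vector pair, and all 4 boxes straddle 0 with Nanog and with Esrrb.

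The regulators of mitosis genes and cell cycle exit, 17 measured and including both silencers and activators, held large changes in both directions. Over the 4 pairs Rb1, the retinoblastoma gene, rose by 1.21 ± 0.21 (SE, n = 4 pairs, adjusted p 0.0358). Its signals were 8.92, 8.24, 8.54 and 8.83 without Dox and 10.64, 9.89, 9.45 and 9.41 with Dox, with no overlap. Rbl2, the p130 subunit of DREAM, rose by 0.48 ± 0.10 (adjusted p 0.0472), while the activator E2f3 (-0.80), the CDK inhibitor Cdkn1b (-0.79) and Lin54 (-0.50), the MuvB subunit that reads the CHR, fell. Averaged over the probe sets of a gene, Rb1, E2f3 and Lin54 did not pass (adjusted p 0.0929, 0.0908 and 0.0889), and E2f3 was at -0.37. Rbl1, or p107, fell by 0.90 ± 0.11 with empty vector and 2i (adjusted p 0.00662), and by that average had -0.31 with an adjusted p of 0.135. Cdkn1a, the p21 inhibitor through which p53 turns mitosis genes off, rose there by 1.81 ± 0.17 (adjusted p 0.00367), from 9.62 to 11.08 with empty vector and from 9.47 to 11.63 with 2i. With Nanog and Esrrb its ratios were 0.48 and 0.39, and the difference between the sets, -1.37 ± 0.24, had an adjusted p of 0.0829. Whether these regulators bear on the mitosis genes was not tested.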

How the data were processed

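Gene expression was measured on 8 Affymetrix mouse GeneChip arrays, 1 per condition. Per the labels and the methods, the authors background-corrected and normalized the arrays together by robust multiarray analysis with the affy package in R (versions not given in the sources used here), and the deposited values, between 1.82 and 14.63, were read as log2 signals. Array medians lay between 5.31 and 5.36. GEO's platform annotation gave 1 symbol for 34958 of the 45101 probe sets, several for 932 and none for 9211, and the first kind gave 18194 genes, each by its probe set of highest mean signal. Probe-level intensities were not used here, and precision is limited by how many arrays there are.

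The members and all gene lists were chosen with earlier results of these data known. Dox effects were tested with limma 3.58.1 (R 4.3.3; lmFit, and eBayes with a trend) and Benjamini-Hochberg adjustment over 18194 genes at a threshold of 0.05. One fit held background as a block (3 residual degrees of freedom), and the other held background and a Dox term for each set of 2 pairs (2 residual degrees of freedom). The code was tested on simulated data. Members were all named, as were the regulators of cell cycle exit and up to 4 other mitosis genes a direction with the largest coefficient among those passing in each comparison; Gnl3, Dusp6 and Spry4 checked the labels. Promoter letters came from RefSeq. Alternatives were the mean of probe sets, other probe set filters, renormalization, other eBayes settings, no block, each pair left out, and other fold thresholds. Figures were drawn with matplotlib 3.10.9.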

Additional observations from a re-analysis of the deposited data

How the results depend on the processing

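No result turned its direction under any alternative run. Renormalizing by quantiles, centring on array medians, removing dim or _x_at and _s_at probe sets, robust moderation and leaving out the replicate block kept every count of members within 1.5 times. Leaving out 1 pair at a time gave 0 members in each case for the test over all pairs (5 with all), 3 to 25 for the empty vector and 2i pairs (13), 0 to 9 for the Nanog and Esrrb pairs (1) and 0 to 14 for the difference (0); where 1 pair of a set is left out, the remaining pair is assumed to vary like the other set. Moderation without a trend gave 8 members for empty vector and 2i and 0 for Nanog and Esrrb. Averaging probe sets per gene gave 0 for Nanog and Esrrb and 4 members past 2-fold in the 2i pair. Fitting each set from its own arrays, chosen after seeing the data, gave 4 and 9. At 1.5-fold 6 members passed with empty vector, 14 with 2i, 3 with Nanog and 3 with Esrrb, and at 3-fold 1 with empty vector and 0 with 2i. Shares over all genes are not given here for the fit without a trend, the averaged probe sets or these fold thresholds. Those counts therefore cannot be set against all genes. The cause of the changes in count under these alternatives was not tested. Fits with a pair left out, or on the arrays of 1 set, also held fewer arrays. Of 20 members with several probe sets above the median, the sets had the same sign for 16, 18, 9 and 13 in the 4 pairs, most apart for Tpx2 in the 2i pair, where they spanned 1.42. No paired analysis by replicate number was possible because the labels give none; the block is the background.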

Other observations

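Outside the lists, the 5 genes whose profile was most like the members' mean were Fbxl16, Kmt5a, 9230116N13Rik, Hmces and Bnc2, with Pearson's r between 0.998 and 0.999 over the 8 arrays after each pair was centred on its own mean, so that r rests on 4 Dox differences and carries no test. They were picked as the highest of all genes. Kmt5a, whose product methylates histone H4, had ratios of -0.26, -0.72, -0.10 and -0.17 with empty vector, 2i, Nanog and then Esrrb, and Hmces of -0.93, -2.10, -0.34 and -0.36. Among the members Nuf2, Ccna2 and Nek2 followed the mean most closely (r of 0.999, 0.994 and 0.991), and Gtse1 ran opposite (-0.82). Each member is itself part of that mean, so its r is not comparable with that of the genes outside the lists.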
